A study of Arabidopsis thaliana with 8 samples.

Results

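The effect of the as2-1 mutation at 26 °C was followed in shoot apices of Arabidopsis thaliana, in plants with the wild-type RH10 gene and in plants with the rh10-1 allele. The comparison used 4 of the 8 ATH1 GeneChip arrays of the series, chosen by genotype and temperature alone: as2-1 against Col-0, and as2-1 rh10-1 against rh10-1. The groups were thus the as2-1 single mutant, the wild type Col-0, the as2-1 rh10-1 double mutant and the rh10-1 single mutant. All were 15 days old and grown under 16 hours of light and 8 hours of dark. Each genotype was measured on 1 array. The 2 pairs, which share no array but differ in RH10 background, were thus the only repeat of the as2-1 effect. The other 4 arrays held the same genotypes at 22 °C and were used to follow the genes found at 26 °C. The as2-1 line had been outcrossed to Col-0, and rh10-1 was found among mutagenized as2-1 seed. No second as2 allele was measured, and the mutation and differences linked to it cannot be told apart.

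AS2 encodes a plant-specific nuclear protein that acts with the MYB protein AS1 in young leaf primordia. The complex represses abaxial genes and class 1 KNOX homeobox genes, and loss of AS2 disturbs the upper and lower sides and the symmetry of the leaf. RH10 is a nucleolar DEAD-box RNA helicase needed for ribosomal RNA processing, and mutations in such nucleolar genes enhance the leaf defects of as2. Aliphatic glucosinolates, which enter the results below, are sulphur-rich defence compounds that Arabidopsis makes from methionine.

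The 4 arrays at 26 °C had medians of 76.7 to 79.9 signal units, a common trimmed mean of 198.3 to 198.4, and Spearman's rho of 0.937 to 0.962 between arrays across probe sets, which are not independent replicates. Of 22746 probe sets, 13230 could be assigned to 1 gene each and gave 13074 genes, of which 8041 were kept because they exceeded the 40th percentile of an array (39.1 to 44.5 units) on at least 1 of the 4 arrays. AS2 was not among the named genes, so that the genotype labels could not be checked on it. All 4 green leaf markers measured were kept, with signals of 1550 to 8736.5. Of the shoot apex markers, YAB5 and YAB3 were kept and CLV3 gave 0.9 to 11.8. Both root markers (1 to 38.2) and the floral marker AMS (4.5 to 21.4) stayed under the 40th percentile on each of the 4 arrays. The summed signal of the 4 green leaf markers was 20494.7 in as2-1 against 17908.8 in Col-0 and 16348.6 in as2-1 rh10-1 against 18192.5 in rh10-1, so that it did not move one way with as2-1. In such tissue samples, fewer cells of a type and less RNA per cell cannot be told apart.

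At 26 °C, 37 genes were at least 2-fold higher in the as2-1 plants of both pairs and 43 were at least 2-fold lower, which is 0.46% and 0.535% of the 8041 genes. A further 60 genes (0.746%) passed 2-fold in both pairs in opposite directions. In the RH10 background, 164 genes (2.04%) were higher in as2-1 than in Col-0 and 232 (2.89%) were lower. In the rh10-1 background, 348 genes (4.33%) were higher in as2-1 rh10-1 than in rh10-1 and 391 (4.86%) were lower. The 37 genes were thus 22.6% of those higher in the first pair and 10.6% of those higher in the second, and the 43 genes were 18.5% and 11% of those lower. Quantile normalization turned the balance between directions, giving 47 genes higher and 34 lower in both pairs, and 211 higher and 165 lower in as2-1 against Col-0. Across the 8041 genes, which are not independent replicates, the log2 ratios of the pairs had a Pearson r of 0.14 and a Spearman rho of 0.20, with an SD of 0.54 in the RH10 background and 0.67 in the rh10-1 background.

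**Figure D1:**
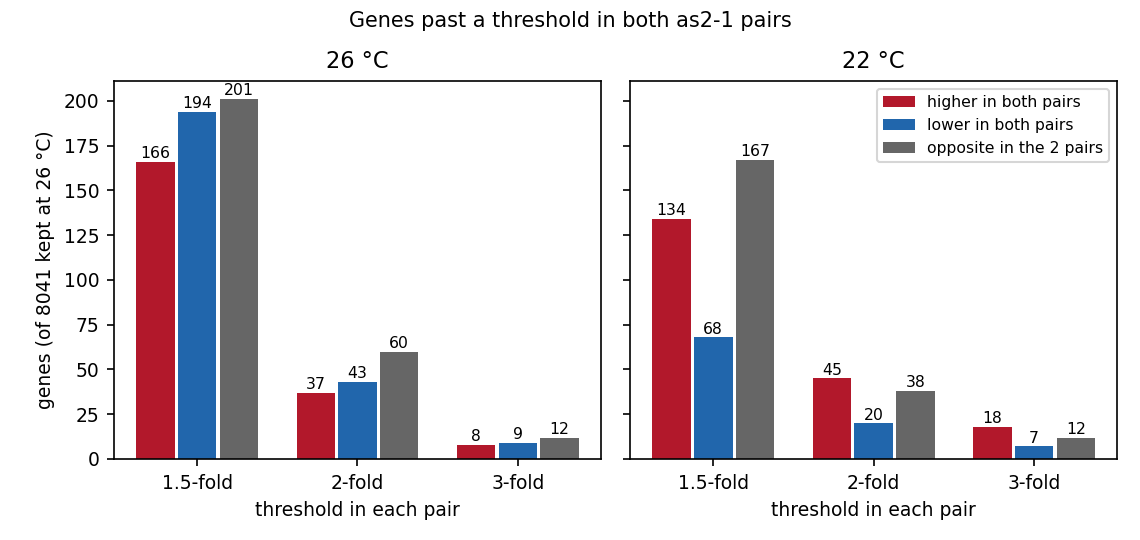
Number of genes, of the 8041 kept at 26 °C, at or past 1.5-fold, 2-fold and 3-fold in both as2-1 pairs, for the 26 °C arrays (left) and the 22 °C arrays (right). Red bars are genes higher in as2-1 in both pairs, blue bars genes lower in both, and grey bars genes that went opposite ways. At 26 °C and 2-fold the bars stand at 37, 43 and 60 genes.

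**Figure D2:**
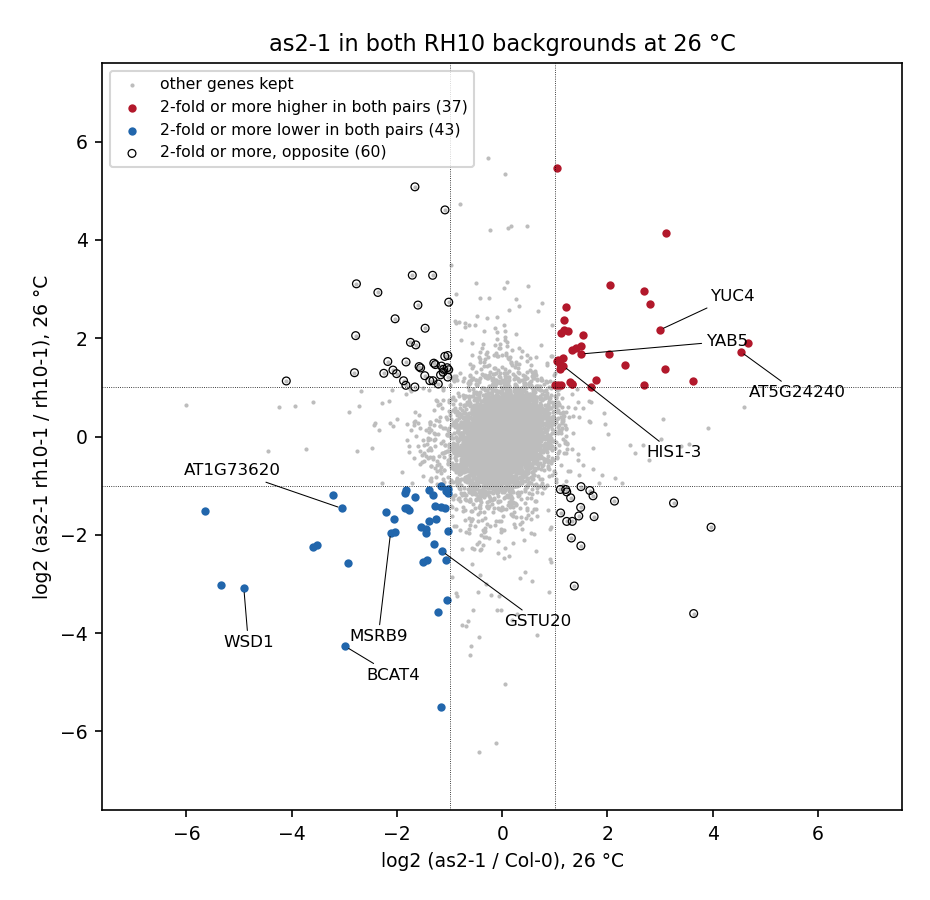
Log2 ratio of signals in as2-1 rh10-1 over rh10-1 (vertical axis) against that in as2-1 over Col-0 (horizontal axis) at 26 °C, 1 point a gene. The 37 genes at least 2-fold higher in both pairs are red, the 43 lower in both are blue, the 60 opposite genes are open circles, and dotted lines mark 2-fold.

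A limma fit of as2-1 with RH10 background as a block, which has 1 residual degree of freedom a gene, gave 0 genes past an adjusted p of 0.05 in either direction, while 816 genes were under 0.05 before adjustment. BCAT4 had the smallest adjusted p, 0.0612. The errors below are standard errors of this fit (n = 2 pairs). The residual of a gene is here the difference of its as2-1 ratio between the 2 backgrounds. A real dependence of the as2-1 effect on RH10 background thus counts as error in these errors and p-values. For a single gene, an exact sign-flip test over 2 pairs cannot give a two-sided p under 0.5. The values that follow are therefore those of these arrays, and none of the named ratios passed the adjusted test at 26 °C on the 4 arrays. Where groups are said below not to overlap, this only describes the signals of that gene. The share of all genes that separate in this way was not counted. For genes chosen by their ratios, such separation adds no support. Many members were dim: 21 of the 37 higher genes and 22 of the 43 lower genes had an array under its 20th percentile (8.9 to 11.5 units). Only 9 of the higher and 7 of the lower genes were above the 40th percentile on all 4 arrays, against 6623 of all 8041 genes. The members nearest to the threshold were AT1G13460 just inside (1.69 and 1.01 on the log2 scale) and AT2G46220 just outside (1.0 and 1.3) among higher genes, and AT5G38890 just inside (−1.17 and −1.02) and AT2G31790 just outside (−0.99 and −1.0) among lower genes.

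Among the 3 leaf polarity genes measured, YAB5 was the member higher in as2-1 in both pairs. It encodes a YABBY transcription factor, a family expressed on the abaxial side of lateral organs. Its signal was 176.2 in as2-1 against 62.6 in Col-0, and 218.0 in as2-1 rh10-1 against 68.1 in rh10-1. Both as2-1 arrays lay well above both others, with log2 ratios of 1.49 and 1.68 (mean 1.59 ± 0.23, limma adjusted p = 0.274). At 22 °C YAB5 gave 182.9 in as2-1 against 89.9 in Col-0, and 245.8 in as2-1 rh10-1 against 93.6 in rh10-1, so that the groups did not overlap at that temperature either. YAB3, another abaxial YABBY gene, gave 270.0 in as2-1 against 374.0 in Col-0 and 287.8 in as2-1 rh10-1 against 288.5 in rh10-1. PHV, an adaxial class III homeodomain-leucine zipper gene, gave 337.3 in as2-1 against 410.3 in Col-0 and 214.2 in as2-1 rh10-1 against 397.1 in rh10-1, log2 ratios of −0.28 and −0.89. Of the 16 leaf identity genes listed, only 3 had a probe set that could be assigned to them, and these 3 were kept. The others, ETT, ARF4, KAN1 and KAN2 among them, thus could not be read by name here. This limit lies in the naming of probe sets used here, as the study reports ETT, ARF4 and KAN2 from these arrays. Of the 3 genes kept, 1 passed 1.5-fold in both pairs (YAB5, higher), against 2.06% higher and 2.41% lower of all genes.

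Several other regulators of the apex had opposite signs in the pairs. AGO7 encodes an Argonaute protein of the pathway that yields the small RNAs which restrain abaxial auxin response factors. It had log2 ratios of −0.90 in as2-1 over Col-0 and 0.50 in as2-1 rh10-1 over rh10-1. LAS, a GRAS-family gene of organ boundaries, had −0.63 and 1.13. NUB, a zinc finger gene of lateral organ growth, had −0.81 and 0.39, and ARL, a gene of organ size, had 0.32 and −0.06. ARR15, a type-A response regulator induced by cytokinin, gave 22.1 in as2-1 against 61.3 in Col-0 but 104.7 in as2-1 rh10-1 against 44.4 in rh10-1. For it the pairs were thus opposite, at −1.47 and 1.24. RR16, another type-A response regulator, had −0.38 and −0.35. JAG, a zinc finger gene of organ growth, had 0.29 and 0.33 but was not kept. CLV3, the stem cell peptide gene, was not kept either, with at most 11.8 units on the 4 arrays. Of the 15 listed KNOX, BELL and stem cell genes, CLV3 was the 1 with an assigned probe set. No class 1 KNOX gene was thus measured here.

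YUC4, which encodes a flavin monooxygenase of auxin synthesis, was higher in as2-1 in both pairs but dim. Its signal was 23.1 in as2-1 against 2.9 in Col-0, and 53.9 in as2-1 rh10-1 against 12.0 in rh10-1. It was kept through the double mutant array alone, and the mean log2 ratio of 2.58 had a standard error of 1.37 (adjusted p = 0.545). At 22 °C the order was the other way, with 22.2 in as2-1 against 45.4 in Col-0 and 21.8 in as2-1 rh10-1 against 38.7 in rh10-1. Of the 7 auxin genes kept, 4 had a positive ratio in both pairs, 2 a negative one in both, beside 28.1% and 30.4% of all genes, and YUC4 alone passed 1.5-fold in both, beside 2.06%. WES1 and GH3.17, which encode enzymes that conjugate auxin to amino acids, had log2 ratios of 0.44 and 0.90, and of 0.14 and 1.62. GH3.3 had −0.44 and −4.07, where the as2-1 rh10-1 array was at 3.0 units. Of the gibberellin receptors, GID1A had 0.35 and 0.83, GID1C 0.19 and 0.41, and GID1B 1.24 and −0.69.

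The aliphatic glucosinolate genes formed the list with the lowest median ratio among the 9 lists with at least 3 members kept. Lists and members had been chosen with earlier results of these data known, so that this rank is only a description. Of its 29 members only 4 had a probe set that could be assigned to them, and all 4 were kept. The 4 had lower signals in as2-1 in both pairs, 3 of them by at least 2-fold, beside 30.4% and 0.535% of all genes. AOP3 was kept through the rh10-1 array alone, and without it 2 of 3 genes passed 2-fold, with medians of −1.14 in as2-1 over Col-0 and −2.33 in as2-1 rh10-1 over rh10-1. With AOP3 the list medians were −1.29 in as2-1 over Col-0 and −2.42 in as2-1 rh10-1 over rh10-1, beside −0.01 over all genes in both pairs. BCAT4, the aminotransferase that opens the methionine chain-elongation cycle, gave 83.7 in as2-1 against 662.2 in Col-0, and 72.8 in as2-1 rh10-1 against 1404.2 in rh10-1. The 2 arrays with as2-1 were close to each other and far below both arrays without it (mean log2 ratio −3.63 ± 0.31). GSTU20, a tau-class glutathione S-transferase, gave 510.4 in as2-1 against 1128.5 in Col-0, and 276.5 in as2-1 rh10-1 against 1393.5 in rh10-1. AT2G31790, placed in the list by its locus code, gave 203.0 in as2-1 against 404.4 in Col-0, and 208.1 in as2-1 rh10-1 against 416.2 in rh10-1. For both genes the groups did not overlap, and the mean log2 ratios were −1.74 ± 0.28 for GSTU20 (adjusted p = 0.298) and −1.0 ± 0.19 for AT2G31790 (adjusted p = 0.363). AOP3, a dioxygenase that modifies the side chain, exceeded the 40th percentile on the rh10-1 array alone, at 1.3 in as2-1 against 3.5 in Col-0 and 8.3 in as2-1 rh10-1 against 47.1 in rh10-1.

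At 22 °C the log2 ratios of BCAT4, GSTU20 and AT2G31790 lay between −0.04 and 0.32. BCAT4 gave 4232.4 in as2-1 against 3749.3 in Col-0, and 2863.2 in as2-1 rh10-1 against 2944.8 in rh10-1. GSTU20 gave 7992.7 in as2-1 against 6402.7 in Col-0, and 6312.5 in as2-1 rh10-1 against 5891.1 in rh10-1. Both genes were thus brighter on every 22 °C array than on any 26 °C array. The difference of the as2-1 effect between temperatures was tested in a fit of all 8 arrays with 2 residual degrees of freedom and 8399 genes. BCAT4 was the only gene called (0.0119% of genes), with a difference (26 °C less 22 °C) of −3.69 ± 0.38 on the log2 scale (adjusted p = 0.0138), while 497 genes had a p under 0.05 before adjustment. For GSTU20 the difference was −1.95 ± 0.37 (adjusted p = 0.471) and for AT2G31790 −1.01 ± 0.26 (adjusted p = 0.826). The BCAT4 call was lost in the limma fit without an intensity trend (adjusted p = 0.677). It was also lost when any 1 of the 4 arrays at 22 °C was left out, with the difference at −3.59 to −3.80. Those fits are not separate checks, since each took its spread from the 26 °C arrays alone. Leaving out an array at 26 °C gave a difference of −3.05 or −4.34.

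With the same terms fitted to the 8 arrays over the 8041 genes kept at 26 °C, the as2-1 effect at that temperature was called for 3 genes, which were lower (0.0373%). They were BCAT4 (−3.63 ± 0.27, adjusted p = 0.000746), MSRB9 (−2.04 ± 0.24, 0.022) and AT1G29270 (−2.03 ± 0.26, 0.036). Each of these calls was lost when any 1 of the 4 arrays at 22 °C was left out, with the effects unchanged. These fits are not separate checks, since each took its spread from the 26 °C arrays alone. Leaving out an array at 26 °C left 1 pair to give the effect. It was −2.98 or −4.27 for BCAT4, −1.95 or −2.12 for MSRB9 and −1.51 or −2.56 for AT1G29270. MSRB9 encodes a methionine sulphoxide reductase of the B type, which repairs oxidized methionine. Its signal was 63.1 in as2-1 against 274.5 in Col-0, and 37.0 in as2-1 rh10-1 against 143.4 in rh10-1. AT1G29270 gave 165.5 in as2-1 against 470.0 in Col-0, and 55.1 in as2-1 rh10-1 against 325.4 in rh10-1. Both genes kept their direction at 22 °C at smaller size, with log2 ratios of −0.91 and −0.50 for MSRB9 and −0.89 and −0.72 for AT1G29270.

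**Figure D3:**
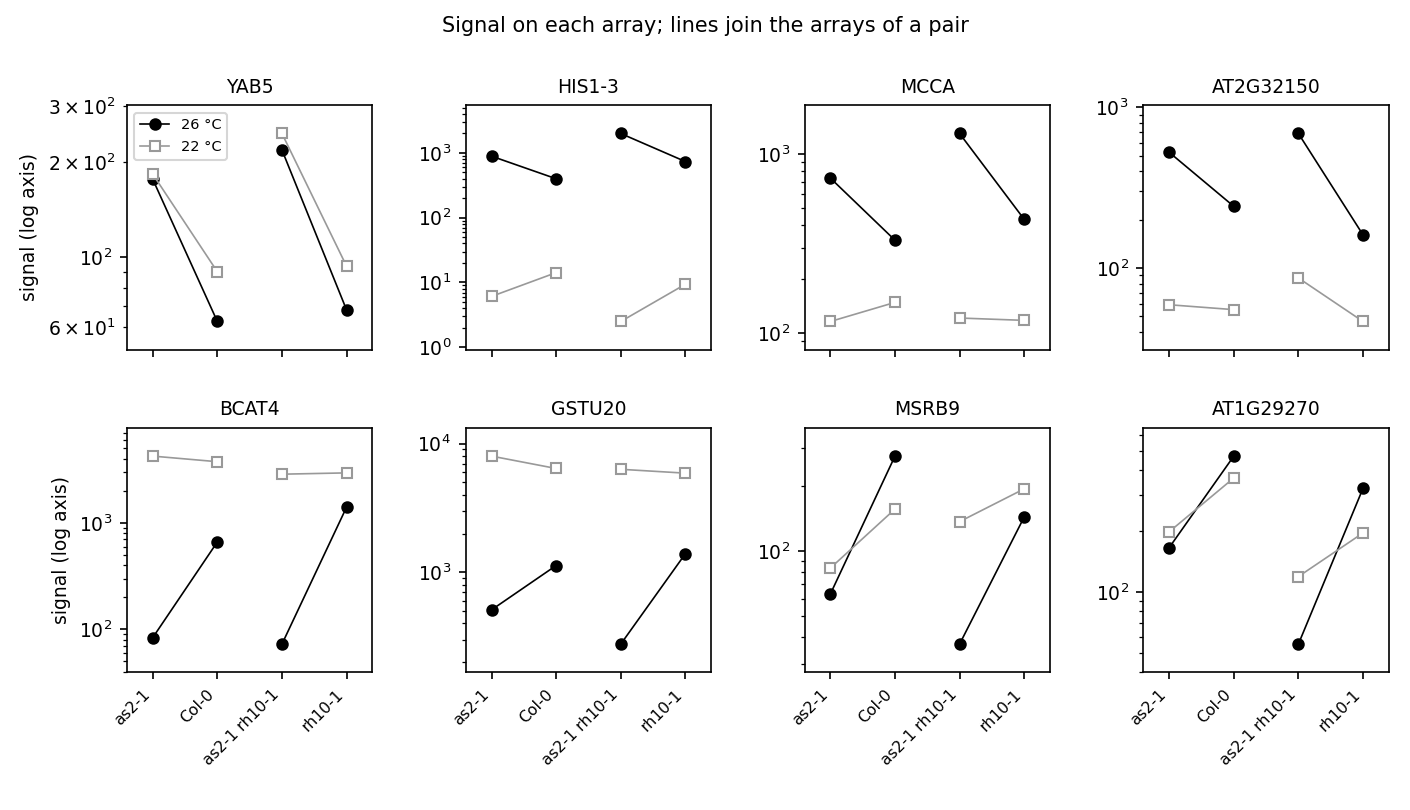
Signal of 8 genes (linear units on a log axis) on each array, with as2-1 left of Col-0 and as2-1 rh10-1 left of rh10-1. Filled circles are the 26 °C arrays, open squares the 22 °C arrays, 1 array a point, and lines join the arrays of a pair. BCAT4 and GSTU20 are lower in as2-1 at 26 °C and nearly level at 22 °C, and YAB5 is higher in as2-1 at both temperatures.

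Other genes of sulphur and methionine metabolism were chosen for description after their values were seen, from the genes with a symbol that passed 1.5-fold the same way in both pairs (29 higher and 28 lower). MSRB5, a second methionine sulphoxide reductase, gave 37.5 in as2-1 against 56.7 in Col-0, and 31.8 in as2-1 rh10-1 against 104.3 in rh10-1. SIR, the sulphite reductase of sulphate assimilation, gave 510.7 in as2-1 against 796.3 in Col-0, and 531.7 in as2-1 rh10-1 against 997.2 in rh10-1 (−0.77 ± 0.18, adjusted p = 0.385). MGL, which breaks down methionine, went the other way, with 409.4 in as2-1 against 249.4 in Col-0 and 391.8 in as2-1 rh10-1 against 204.1 in rh10-1 (0.83 ± 0.19, adjusted p = 0.385). These genes had been chosen by these ratios, which are given as a description. At 22 °C the log2 ratios of SIR were −0.11 and 0.09, and those of MGL −1.24 and 0.67.

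All 7 measured members of the list of nucleolar and ribosome biogenesis genes had lower signals in as2-1 in both pairs, where 30.4% of all genes did and 28.1% were higher in both. None of them reached 1.5-fold in both pairs, and their medians were −0.42 in as2-1 over Col-0 and −0.75 in as2-1 rh10-1 over rh10-1. PRH75, a nucleolar DEAD-box RNA helicase, gave 2047.4 in as2-1 against 2979.2 in Col-0, and 1676.6 in as2-1 rh10-1 against 2917.3 in rh10-1. YAO, a nucleolar protein of ribosomal RNA processing, gave 182.9 in as2-1 against 269.7 in Col-0, and 151.5 in as2-1 rh10-1 against 273.3 in rh10-1. For both genes the 2 arrays with as2-1 lay below both arrays without it, with mean log2 ratios of −0.67 ± 0.17 and −0.71 ± 0.20 and an adjusted p of 0.439 each. RH10 itself gave 293.4 in as2-1 against 347.8 in Col-0, and 261.1 in as2-1 rh10-1 against 394.1 in rh10-1, a mean of −0.42 ± 0.19 (adjusted p = 0.51). The other members were known by locus code: AT3G15460 had log2 ratios of −0.91 and −0.58, AT3G09720 −0.42 and −0.91, AT3G05060 −0.40 and −0.75, and AT1G52930 −0.04 and −0.32. At 22 °C 0 of the 7 genes were lower in both pairs and 2 were higher in both, beside 25.3% and 22.1% of all genes. The median of their mean ratios at 22 °C was 0.09. The rh10-1 allele was present on 2 of the 4 arrays at each temperature, 1 with as2-1 and 1 without.

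Few genes of the cell division and epidermal lists were measured. SPCH and FMA, transcription factors for the start and the end of the stomatal lineage, were the 2 kept members of the epidermal list and both passed 1.5-fold lower in both pairs, beside 2.41% of all genes. SPCH was kept through the Col-0 array alone, so that the count of 2 rests in part on the array where it was high. SPCH gave 25.1 in as2-1 against 71.4 in Col-0, and 15.8 in as2-1 rh10-1 against 27.5 in rh10-1, and FMA gave 42.5 in as2-1 against 66.1 in Col-0, and 23.0 in as2-1 rh10-1 against 50.5 in rh10-1. These were dim genes, and the standard errors of their mean log2 ratios (−1.15 ± 0.61 and −0.89 ± 0.43) were large. In the cell division list, 2 of the 3 genes kept had lower signals in both pairs and 1 passed 1.5-fold, beside 30.4% and 2.41% of all genes. PRL, a subunit of the replicative helicase, gave 194.2 in as2-1 against 292.0 in Col-0, and 140.4 in as2-1 rh10-1 against 263.6 in rh10-1. The Aurora kinases that act in mitosis had log2 ratios of −0.77 and −0.51 for AUR2, and −0.55 and 0.07 for AUR1. PRL had no overlap between arrays with and without as2-1 (−0.75 ± 0.20, adjusted p = 0.439).

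The photosynthesis genes had medians of 0.18 in as2-1 over Col-0 and −0.22 in as2-1 rh10-1 over rh10-1. Of the 10 kept, 0 passed 1.5-fold in both pairs, beside 2.06% higher and 2.41% lower of all genes. A positive ratio in both pairs was found for 4, a negative one in both for 2 and opposite signs for 4. Of all genes, 28.1% were positive in both and 30.4% negative in both, and 3325 of 8041 had opposite signs. RCA, the activase of Rubisco, had log2 ratios of −0.07 and −0.25, LHCB4.1, a light-harvesting protein, 0.04 and −0.23, and PRK, a kinase of the Calvin cycle, 0.71 and 0.06. LHCB4.3, the dimmest of the 10 at 78.1 to 160.9 units, had 0.51 and 0.40. Of the 10 expansin and xyloglucan enzyme genes kept, which loosen the cell wall, EXPB3 alone passed 1.5-fold in both pairs (2.06% of all genes were higher). It gave 196.3 in as2-1 against 123.4 in Col-0, and 257.4 in as2-1 rh10-1 against 114.9 in rh10-1, so that the groups did not overlap. EXPA15 went the other way at −0.58 and −0.68, while XTH19 had 2.43 in as2-1 over Col-0 and −0.18 in as2-1 rh10-1 over rh10-1, and EXLA1 −0.04 and 1.88. The single members kept of the other lists had opposite signs in the pairs (UGT74B1 and UGT78D2, which are glycosyltransferases) or small ratios in both (HCT at −0.03 and −0.14, EXO at −0.05 and −0.28), except GI, a clock gene, at −0.20 and −0.83. In the defence list WRKY53 had −0.16 and 0.47 and GRX480 −0.49 and −0.01.

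**Figure D4:**
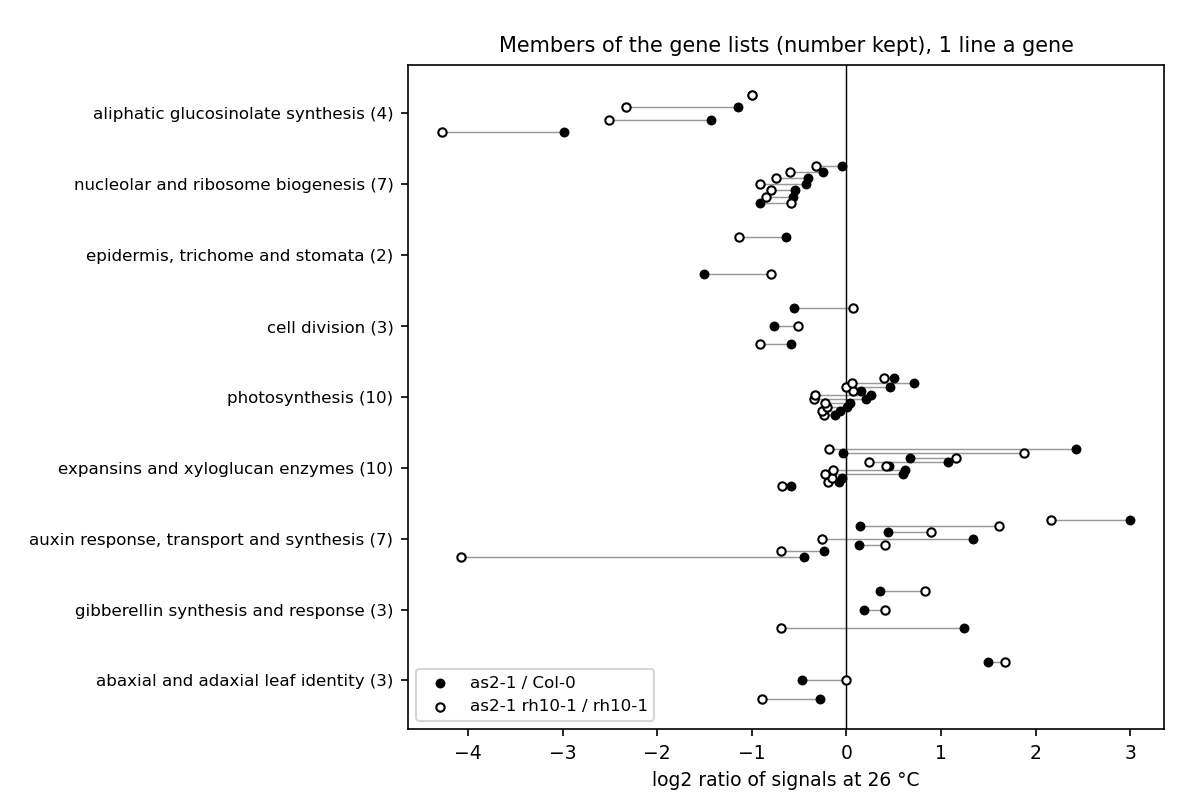
Log2 ratios of signals at 26 °C for the members kept of 9 gene lists, 1 line a gene joining its ratio in as2-1 over Col-0 (filled) with that in as2-1 rh10-1 over rh10-1 (open). The 4 aliphatic glucosinolate and 7 nucleolar genes lie left of 0 in both pairs, and the 10 photosynthesis genes lie on both sides of it.

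Among the genes higher in both pairs, the brightest with a known role were HIS1-3 and MCCA. HIS1-3, a linker histone induced by drought and abscisic acid, gave 889.1 in as2-1 against 398.7 in Col-0, and 1991.0 in as2-1 rh10-1 against 734.7 in rh10-1. MCCA, a subunit of the carboxylase that degrades leucine in mitochondria, gave 733.4 in as2-1 against 330.0 in Col-0, and 1300.7 in as2-1 rh10-1 against 431.6 in rh10-1. Each as2-1 array was above both arrays without the mutation, for means of 1.3 ± 0.18 and 1.37 ± 0.19 (adjusted p = 0.255 each). COR47, a dehydrin of the same list as HIS1-3, had log2 ratios of 0.11 and 1.13, COR15B had 0.01 and −0.77, and LTI30 had −0.53 and 0.54. CYP84A4, a cytochrome P450, gave 163.7 in as2-1 against 47.6 in Col-0, and 65.0 in as2-1 rh10-1 against 29.5 in rh10-1. UGT72B3, a glycosyltransferase, gave 53.8 in as2-1 against 21.9 in Col-0, and 131.8 in as2-1 rh10-1 against 60.9 in rh10-1. Here the values overlapped across backgrounds, since as2-1 lay below rh10-1.

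The remaining named genes that were higher carried a locus code only. The brightest was AT2G32150, at 525.1 in as2-1 against 241.9 in Col-0 and 687.6 in as2-1 rh10-1 against 160.8 in rh10-1. AT5G24240 ranked first of the 15 named by the size of the smaller ratio, with 122.4 in as2-1 against 5.3 in Col-0 and 163.3 in as2-1 rh10-1 against 49.3 in rh10-1, and the Col-0 array was under its 20th percentile. AT3G24450, AT1G69080, AT5G12050 and AT4G33420 were above the 40th percentile on all 4 arrays, and their log2 ratios were 1.04 to 1.56. AT1G02070 (1.18 and 2.18), AT2G47780 (1.33 and 1.06), AT3G28220 (1.33 and 1.06) and AT3G17050 (2.69 and 1.06) had at least 1 array below it. AT2G14900, outside the named genes by rank and added after its values were seen, had the highest as2-1 signal of the 37, at 3186.2 in as2-1 against 1585.8 in Col-0 and 1973.1 in as2-1 rh10-1 against 958.2 in rh10-1.

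Of the named genes that were lower, WSD1, a wax ester synthase of the cuticle, gave 1.6 in as2-1 against 48.1 in Col-0, and 7.6 in as2-1 rh10-1 against 64.7 in rh10-1. AT5G59170 gave 1.6 in as2-1 against 64.6 in Col-0, and 6.4 in as2-1 rh10-1 against 51.7 in rh10-1. Their as2-1 arrays were all under the 20th percentile, so that the sizes of these ratios (means of −4.00 ± 1.46 and −4.17 ± 1.53) were poorly measured. BAT1, an acyltransferase that acts on brassinosteroids, gave 25.9 in as2-1 against 81.6 in Col-0, and 25.0 in as2-1 rh10-1 against 58.7 in rh10-1. AT1G73620 gave 25.8 in as2-1 against 213.1 in Col-0, and 36.1 in as2-1 rh10-1 against 99.5 in rh10-1. Both stayed under the 40th percentile on the as2-1 arrays and above it on the others. AT3G28500 gave 38.6 in as2-1 against 105.2 in Col-0, and 133.3 in as2-1 rh10-1 against 517.0 in rh10-1, with a difference between backgrounds as well. AT1G11670, AT1G68780, AT2G34810 and AT1G13410 had log2 ratios of −1.07 to −1.72 in the pairs, AT5G54400 had −1.07 and −2.51, and AT2G19970 had −3.21 and −1.18.

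The genes with opposite ratios were mostly dim. Of the 60, 20 were higher in as2-1 than in Col-0 and lower in as2-1 rh10-1 than in rh10-1, and 40 the reverse. STZ, a zinc finger repressor induced by stress, gave 30 in as2-1 against 123.0 in Col-0, but 133.6 in as2-1 rh10-1 against 25.4 in rh10-1. CHX20, a cation exchanger, gave 38.9 in as2-1 against 13.8 in Col-0, but 10.5 in as2-1 rh10-1 against 49.1 in rh10-1. With a requirement of the 40th percentile on all 4 arrays, 5 opposite genes were left beside 9 higher and 7 lower in both pairs.

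At 22 °C, on arrays that played no part in the choice, 6 of the 80 genes passed 2-fold in both pairs in their 26 °C direction. Against that direction, 3 of the 37 higher genes passed 2-fold lower in both pairs, and 1 of the 43 lower genes passed 2-fold higher. Of all 8041 genes, 65 (0.808%) passed 2-fold the same way in both pairs at 22 °C, in either direction. This share was not matched for signal, and the 80 genes were more often under the 40th percentile on a 26 °C array. The 6 genes were YAB5, AT5G24240, AT3G28220 and AT1G66830, higher, and WSD1 and AT4G11350, lower. AT1G66830 and AT4G11350 were dim, under the 40th percentile on every array at 22 °C. AT3G28220 gave 81.7 in as2-1 against 32.6 in Col-0, and 89.9 in as2-1 rh10-1 against 43.1 in rh10-1 at 26 °C, and at 22 °C it gave 232.7 in as2-1 against 100.7 in Col-0, and 299.2 in as2-1 rh10-1 against 109.5 in rh10-1. AT5G24240 gave 147.9 in as2-1 against 1.7 in Col-0, and 144.7 in as2-1 rh10-1 against 11.4 in rh10-1 at 22 °C. In these 2 genes and YAB5 no array with as2-1 overlapped an array without it within a temperature. These genes were picked for passing 2-fold in both pairs at each temperature, so that this only describes their signals. The share of all genes was not counted. Of the 37 higher genes, 10 had positive ratios in both pairs at 22 °C and 14 negative ones, where 22.1% and 25.3% of all genes did. Of the 43 lower genes, 13 had negative ratios in both pairs at 22 °C and 11 positive ones. The median of the mean ratios at 22 °C was −0.14 for the 37 and −0.02 for the 43, and across all 8041 genes the mean as2-1 ratios at the 2 temperatures had a Pearson r of 0.09.

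**Figure D5:**
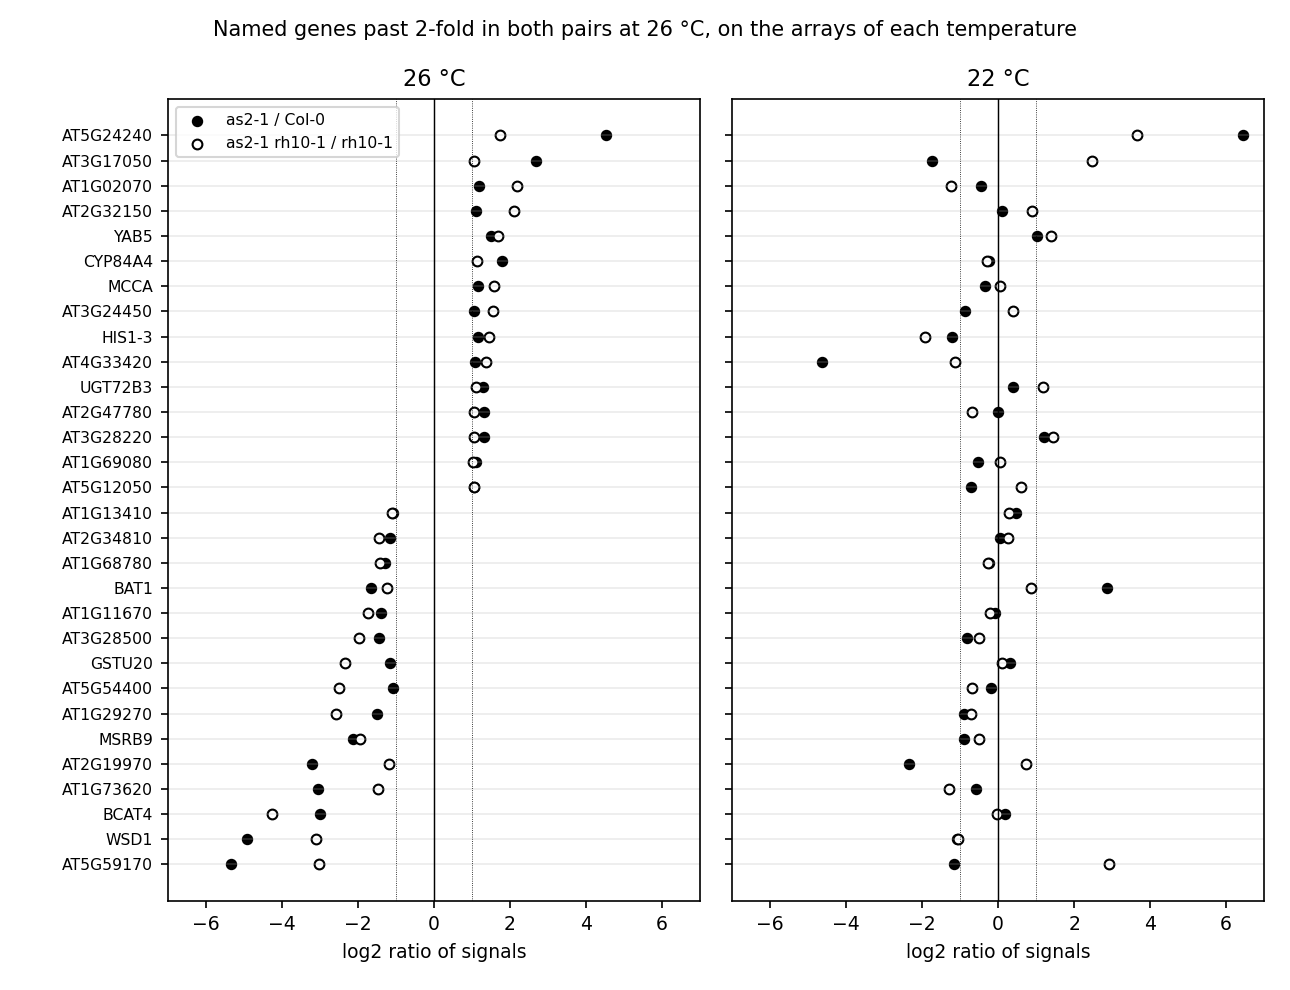
Log2 ratios of signals for the 15 named genes higher and the 15 lower in both pairs at 26 °C, on the 26 °C arrays (left) and the 22 °C arrays (right), ordered by the mean at 26 °C. Filled circles are as2-1 over Col-0, open circles as2-1 rh10-1 over rh10-1, and dotted lines mark 2-fold. At 22 °C YAB5, AT5G24240, AT3G28220 and WSD1 stay past 2-fold in both pairs and BCAT4 sits near 0.

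Position on the chromosome was described next, since the mutation and its linked differences cannot be told apart. Within 500 annotated protein-coding genes on either side of AS2, 300 genes were kept, of which 22 (7.33%) passed 1.5-fold the same way in both pairs at 26 °C, beside 360 of all 8041 (4.48%). Opposite ratios past 1.5-fold occurred in 6 of the 300 genes (2%), beside 201 of all genes (2.50%). The share past 1.5-fold the same way was 4.55% (2 of 44 genes) within 100 genes of AS2, 7.24% (11 of 152) within 250 and 5.56% (32 of 576) within 1000. At 22 °C this share was 4.55% within 100 genes, 5.26% within 250, 3.33% within 500 and 2.78% within 1000, beside 2.51% of all genes. Among the genes described above, AT1G66830, AT1G68780, AT1G69080, AGO7, MGL and JAG, which was not kept, lay within 500 genes of AS2. BCAT4, GSTU20, YAB5, HIS1-3, MCCA and MSRB9 did not. The part of linked differences in the results was not tested.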

How the data were processed

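Expression was measured on ATH1 GeneChip arrays, 1 for each genotype at each temperature. The authors labelled RNA with a 3′ IVT kit and computed signals with GCOS; the deposited intensity values are linear and had already been scaled between arrays, and the genome build is not given in the sources used here. Detection and change calls, which the study used to filter genes, were not used here. Probe sets were named through a platform annotation and the RefSeq gene table, where 13011 of 13074 genes were found. Another 8730 probe sets carried no gene name and are not analysed here.

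Probe sets ending in _s_at or _x_at were left out, the brightest probe set of a gene was used, signals at 0 (6 on the 4 arrays) were set to 0.1, and log2 ratios were taken within each pair. Genes above the 40th percentile on at least 1 of the 4 arrays were kept. limma 3.58.1 in R 4.3.3 (lmFit, eBayes with an intensity trend, Benjamini-Hochberg, threshold 0.05) fitted as2-1 and RH10 background to the 4 arrays, and temperature with both mutations within temperature to all 8. The rest was done in Python 3.11.15 with pandas 2.3.3, numpy 2.4.6, matplotlib 3.10.9 and scipy 1.17.1.

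Named genes were the 15 with the largest smaller ratio in each direction, with the brighter side of both pairs above the 40th percentile, the 4 opposite genes of each kind with the largest smaller ratio, with no such condition, and members of 24 gene lists, of which 20 had a member kept. The lists were written by locus code from general knowledge, without a check against an annotation. The members and lists were chosen with earlier results of these data known. No label states that arrays came from separate plants, so that p-values measure only the spread between these arrays, and their precision is limited by the number of arrays.

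On simulated arrays with 8041 genes and noise set by the spread between the pairs, 82 of 100 genes changed by 1.5 log2 units and 100 of 100 changed by 3 passed 2-fold in both pairs, with 37 of 7841 unchanged genes. limma called 88 and 92 of those 100, with 20 unchanged genes. The simulated noise was normal and had the same SD for genes of similar mean signal, so that spread did not vary from gene to gene. On the real 4 arrays limma called 0 genes. The simulated rates therefore do not tell what share of real changes limma would find. Alternatives were quantile normalization, median centring, a floor at the 20th percentile, other filters and fold thresholds, other choices of probe set, eBayes without a trend, no background block, all 8 arrays, and leaving out each array. The count over all probe sets ending in _at, named or not, the genes with a symbol past 1.5-fold, the genes near AS2 and the lists without genes above the 40th percentile on 1 array only were added after the data had been seen.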

Additional observations from a re-analysis of the deposited data

Results flagged for a closer look

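Some results differed between the RH10 and rh10-1 backgrounds or between temperatures. With 1 array a group, the differences between backgrounds were not tested; they were chosen for being opposite and are given as values. The as2-1 log2 ratio in the rh10-1 background less that in the RH10 background at 26 °C was −7.24 for AT5G56370, −5.82 for AT2G45780, −3.38 for AT3G20300 and −3.72 for CHX20, which were higher in as2-1 than in Col-0 and lower in as2-1 rh10-1 than in rh10-1. It was 5.88 for AT3G19550, 5.29 for AT3G46380, 4.84 for AT2G05910, 4.43 for STZ and 2.71 for ARR15, which went the other way. AT5G56370, AT2G45780, AT3G20300, CHX20, AT3G19550 and AT3G46380 each had only 1 of the 4 arrays above its 40th percentile.

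Between temperatures, 4 genes passed 2-fold one way in both pairs at 26 °C and the other way in both pairs at 22 °C. The mean as2-1 ratio at 26 °C less that at 22 °C was 2.86 for HIS1-3, 4.17 for AT4G15955, 4.12 for AT4G33420 and −5.75 for AT5G26100, with an adjusted p of 0.154 for HIS1-3 and 0.824 to 0.826 for the others in the limma fit of 8 arrays. HIS1-3 gave 889.1 in as2-1 against 398.7 in Col-0 at 26 °C, and 6.1 in as2-1 against 14.2 in Col-0 at 22 °C, where all 4 arrays were under 15 units. BCAT4, with a difference of −3.69 and an adjusted p of 0.0138, was the 1 gene called in that fit.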

How the results depend on the processing

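The counts of genes past 2-fold in both pairs moved most with the filter on low signals. With no filter 328 genes were higher, 490 lower and 727 opposite, and 67 kept their direction past 2-fold in both pairs at 22 °C. A filter at the median gave 23, 14 and 22 genes, and the 40th percentile on all 4 arrays gave 9, 7 and 5, with 1 past 2-fold the same way at 22 °C. At 1.5-fold the counts were 166, 194 and 201, at 3-fold 8, 9 and 12, and over all probe sets ending in _at 56, 91 and 108. When 1 array was left out, the remaining pair alone had 164 to 348 genes higher and 232 to 391 lower. limma on the 4 arrays called 1 lower gene, BCAT4, with no filter, under quantile normalization, with the mean of probe sets and with dim signals raised to the 20th percentile (adjusted p of 0.00182 to 0.0429), and 3 lower genes with all 8 arrays; over the alternatives its adjusted p was 0.000746 to 0.61. Leaving out each of the 8 arrays gave 0 to 128 genes higher and 0 to 214 lower at 26 °C, and for the temperature difference 0 to 59 higher and 0 to 134 lower; without a trend that difference had 0 calls. All counts above 0 came from leaving out an array at 26 °C, where the spread was estimated from 22 °C arrays alone. With the floor, the mean as2-1 effects of AT5G56370 and AT2G45780 reversed to −0.64 and −0.57, beside 0.02 and 1.06 as reported. No paired analysis by replicate number was possible because each group has 1 array; the pairs are those of RH10 background.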
